A study of Mus musculus with 16 samples.

Results

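The MHC class I and antigen processing genes described here are 10 of the 23284 genes in the deposited table: the heavy chain genes H2-K1, H2-D1, H2-Q4, H2-Q6, H2-Q7 and H2-T23, the light chain gene B2m, the peptide transporter genes Tap1 and Tap2, and the immunoproteasome gene Psmb8. They were selected on measured values of these libraries. H2-K1, H2-Q4, H2-Q6 and H2-Q7 stood among the largest rises of iPSC number 4 against number 1, and differences of B2m between numbers and between EBs and iPSCs were known. Differences between numbers and between EBs and iPSCs are therefore given for these genes as descriptions without a test, and tests are given for KIX against KI and for D against V. No record says which values led to the full choice, so those comparisons are taken as not used in it, and their p-values may not be free of selection. All 10 passed the filter on low values, which asked for at least 1 FPKM (fragments normalized for transcript length and sequencing yield) in at least 2 libraries.

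MHC class I molecules show fragments of the proteins a cell makes to T cells and natural killer cells. The proteasome cuts the fragments, the TAP transporter carries them into the endoplasmic reticulum, and a loading complex places them on a heavy chain paired with beta-2-microglobulin. Pluripotent cells are known for low class I levels, and interferons and NF-kappaB raise transcription of the pathway in many cell types.

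The libraries hold polyA RNA of mouse cells with the genotype ColA1_miR203; Rosa26rtTA, in which doxycycline switches on the microRNA miR-203 through a tetracycline transactivator at the Rosa26 locus. Of the 16 libraries, 12 are from iPSCs reprogrammed from embryonic fibroblasts and kept on feeder cells in medium with KSR, a serum replacement, and gentamycin, and 4 are from EBs, aggregates grown in hanging drops, where the cells differentiate. The study followed a transient pulse of miR-203 over time, starting before doxycycline and ending in EBs. Titles join the prefix KIX or KI, the letter D or V and the number 1, 4 or 10 or EB, giving 1 library for each combination, so each number and the EBs have 2 KIX and 2 KI libraries. The labels do not define these codes, and all 16 libraries carry 1 doxycycline label, so no treatment or day is assigned to a code. Nothing in the labels says that 2 libraries came from separate cultures, clones or animals. The p-values below measure only the spread between these libraries, which may be technical, and are then too small.

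Library totals ranged between 612598 and 724350 FPKM, and 12117 to 12501 genes reached 1 FPKM in a library. The summed level of 5 pluripotency markers was 723 to 1390 FPKM in the EB libraries and 2745 to 4253 FPKM in the iPSC libraries, and that of 5 endoderm markers was 1659 to 3199 FPKM in EBs against 0.682 to 12.3 FPKM in iPSCs, in the direction of the labels. Mir203 was listed at 1868 and 1969 FPKM in KIX D and V of number 1 and at 2254 and 1728 FPKM in KIX D and V of number 4. It was listed at 0 in the 4 KI libraries of these numbers and in all 4 libraries of number 10, and in EBs it was listed at 212 FPKM in KIX D and at 90.1 FPKM in KI V and at 0 in the other two.

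The sequences around the transcription start were searched for short motifs, and a link between the motifs and the levels was not tested. Windows from RefSeq (GRCm38.p6) were found for 9 of the 10 genes, with 250 bases before and 50 bases after the start, and for H2-K1 from 1 of its 2 listed starts. Each window below is the stretch that holds the matches before the start, in lower case, with the matches on either strand in capitals. Matches after the start, as in H2-K1, H2-Q4 and B2m, were searched for as well but are not shown.
H2-K1, chr17:34000351-34000466, minus strand: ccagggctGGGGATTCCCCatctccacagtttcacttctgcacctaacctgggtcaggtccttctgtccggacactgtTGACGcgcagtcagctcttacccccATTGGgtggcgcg
H2-Q4, chr17:35379436-35379574, plus strand: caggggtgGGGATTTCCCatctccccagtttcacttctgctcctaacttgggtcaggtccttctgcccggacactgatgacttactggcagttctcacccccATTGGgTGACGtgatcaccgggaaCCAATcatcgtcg
B2m, chr2:122147540-122147646, plus strand: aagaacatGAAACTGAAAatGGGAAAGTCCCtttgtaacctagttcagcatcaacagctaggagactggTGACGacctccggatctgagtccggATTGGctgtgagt
H2-T23, chr17:36032741-36032833, minus strand: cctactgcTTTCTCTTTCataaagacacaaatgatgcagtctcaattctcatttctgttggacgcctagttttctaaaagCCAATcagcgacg
Tap1, chr17:34187326-34187482, plus strand: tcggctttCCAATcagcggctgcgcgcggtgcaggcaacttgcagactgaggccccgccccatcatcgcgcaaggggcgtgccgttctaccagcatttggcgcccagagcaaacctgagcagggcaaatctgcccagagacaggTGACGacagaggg
Psmb8, chr17:34198090-34198114, plus strand: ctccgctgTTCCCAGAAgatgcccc
The capitals mark GGGA, any 4 bases and CC, the NF-kappaB type, TGACG, the X2 box type, and CCAAT, the Y box type. They also mark GAAA, any 2 bases and GAAA, the interferon-stimulated response element type, and TTC, any 3 bases and GAA, the STAT type. Neighbouring matches that overlap run together, as in H2-K1 and B2m, where the NF-kappaB type matches at 2 adjacent positions. The NF-kappaB type was found in 6 of 9 genes (H2-K1, H2-D1, H2-Q4, H2-Q6, H2-Q7 and B2m) and in 20.7% of 32851 mouse promoter windows of the same length. All of these genes but B2m are related heavy chain genes with similar sequence there. Their matches, also those of the other types, are not independent of each other. TGACG was found in 6 of 9 (20.8% of all windows) and CCAAT in 8 of 9 (37.4%). Before the start, TGACG precedes ATTGG in H2-K1, H2-D1, H2-Q7 and B2m. It follows ATTGG in H2-Q4 and CCAAT in Tap1, so its place is not the same in all of them. The interferon type was found in H2-T23 and B2m (3.44%) and the STAT type in Psmb8 (8.3%). A match is a string of letters and not a measured binding site. Each type was searched as 1 fixed string, so a gene without a match may hold such an element in another form.

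H2-K1 and H2-D1 encode the classical heavy chains, and their transcripts were high at number 4. H2-K1 lies at chr17:33996012-34000619. At number 1 it had 67.8 and 65.7 FPKM in KIX D and V, and 71.4 and 68.2 FPKM in KI D and V. At number 4 it had 305 and 253 FPKM in KIX D and V, and 287 and 232 FPKM in KI D and V. At number 10 it had 109 and 119 FPKM in KIX D and V, and 223 and 204 FPKM in KI D and V. All 4 libraries of number 4 and all 4 of number 10 were above all 4 of number 1, and number 10 split by prefix, with both KIX libraries below both KI libraries. In EBs it had 46.6 and 46.8 FPKM in KIX D and V, and 33.3 and 31.1 FPKM in KI D and V, all below every iPSC library. H2-D1 (chr17:35263094-35267497) had 227 and 187 FPKM in KIX D and V of number 4, and 210.0 and 184 FPKM in the KI ones. At number 10 it had 105 and 113 FPKM in KIX D and V, and 192 and 180 FPKM in KI D and V. It was 62.4 to 73.9 FPKM at number 1 and 19.3 to 31.7 FPKM in EBs, so its order over the numbers and EBs was that of H2-K1.

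The Q region genes had lower levels than H2-K1, and H2-Q6 and H2-Q7 had its order over the numbers, while H2-Q4 was highest at number 10. H2-Q4 (chr17:35379617-35384674), a class Ib heavy chain gene, had 76.0 and 59.3 FPKM in KIX D and V of number 4, and 68.2 and 59.4 FPKM in KI D and V. At number 10 it had 52.0 and 59.3 FPKM in KIX D and V, against 106 and 97.3 FPKM in KI D and V. These KI libraries of number 10 were the highest of all 16, while at number 1 the gene was at 12.3 to 17.4 FPKM. H2-Q6 and H2-Q7, members of the Qa-2 family of class Ib molecules, are closely related in sequence. H2-Q6 was 1.55 to 2.58 FPKM at number 1, 11.8 to 18.1 FPKM at number 4, 4.69 to 14.5 FPKM at number 10 and 0.608 to 1.83 FPKM in EBs. H2-Q7 was 2.99 to 3.92, 16.3 to 22.5, 5.89 to 17.7 and 0.756 to 2.86 FPKM in the same order. Of the 50-base words in their reference transcripts, 32.0% of those of H2-Q6 and 34.9% of those of H2-Q7 also occur in another gene. That share was 24.3% for H2-Q4, 28.8% for H2-T23, 14.3% for H2-D1, 8.79% for H2-K1 and 0 for B2m and Psmb8. How reads were divided between such genes can move the levels of single H2-Q rows.

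H2-T23 encodes Qa-1, a nonclassical heavy chain that presents leader peptides of other class I chains. It had 26.1 and 20.4 FPKM in KIX D and V of number 4, and 22.97 and 21.2 FPKM in KI D and V. At number 10 it had 22.2 and 24.6 FPKM in KIX D and V, against 46.7 and 38.1 FPKM in KI D and V. The KIX libraries of number 10 thus lay within the range of number 4 and the KI libraries above it, and number 1 lay lower at 9.05 to 12.9 FPKM.

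B2m encodes beta-2-microglobulin, the light chain shared by class I molecules, and lies at chr2:122147687-122153082, away from the heavy chain genes. It had the highest level of the 10 genes at each number and in EBs. At number 1 it had 321 and 337 FPKM in KIX D and V, and 381 and 363 FPKM in KI D and V. At number 4 it had 820 and 728 FPKM in KIX D and V, and 779 and 710 FPKM in KI D and V. At number 10 it had 422 and 459 FPKM in KIX D and V, against 798 and 849 FPKM in KI D and V. The KI libraries of number 10 overlapped with number 4, and the KIX ones lay between numbers 1 and 4. EBs had 252 and 188 FPKM in KIX D and V, and 112 and 109 FPKM in KI D and V. After B2m, the order H2-K1, H2-D1, H2-Q4 by mean FPKM also held at each number and in EBs.

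Tap1 and Tap2, whose products form the peptide transporter, differed from the heavy chains at number 4. Tap1 (chr17:34187556-34197225) had 14.6 and 11.9 FPKM in KIX D and V of number 1, and 15.3 and 16.4 FPKM in KI D and V. At number 4 it had 16.5 and 13.6 FPKM in KIX D and V, and 14.1 and 13.9 FPKM in KI D and V. At number 10 it had 23.7 and 30.5 FPKM in KIX D and V, against 40.5 and 48.6 FPKM in KI D and V. Numbers 1 and 4 overlapped, and every library of number 10 lay above both. EB levels were 4.44 and 2.57 FPKM in KIX D and V, and 3.31 and 3.27 FPKM in KI D and V. Tap2 (chr17:34204479-34216321) was 6.21 to 9.04 FPKM at number 1, 8.77 to 12.5 FPKM at number 4 and 15.2 to 32.9 FPKM at number 10. In EBs Tap2 had 1.13 and 0.262 FPKM in KIX D and V, and 0.368 and 0.336 FPKM in KI D and V, so 1 KIX library stood above the others.

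Psmb8 (chr17:34198195-34201454) encodes the immunoproteasome subunit that replaces the constitutive subunit of Psmb5. It had 11.3 and 10.6 FPKM in KIX D and V of number 1, and 13.3 FPKM in both KI libraries. At number 4 it had 25.0 and 19.9 FPKM in KIX D and V, and 22.3 and 16.97 FPKM in KI D and V. At number 10 it had 27.2 and 31.2 FPKM in KIX D and V, against 49.9 and 54.6 FPKM in KI D and V. Its level stepped up at each number without overlap, and EBs lay far lower, at 3.44 and 1.78 FPKM in KIX D and V and 0.882 and 0.874 FPKM in KI D and V. Psmb8 FPKM as a percentage of Psmb5 FPKM was 3.42 to 4.38% at number 1, 5.17 to 8.05% at number 4, 8.66 to 19.3% at number 10 and 0.399 to 1.69% in EBs.

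**Figure D1:**
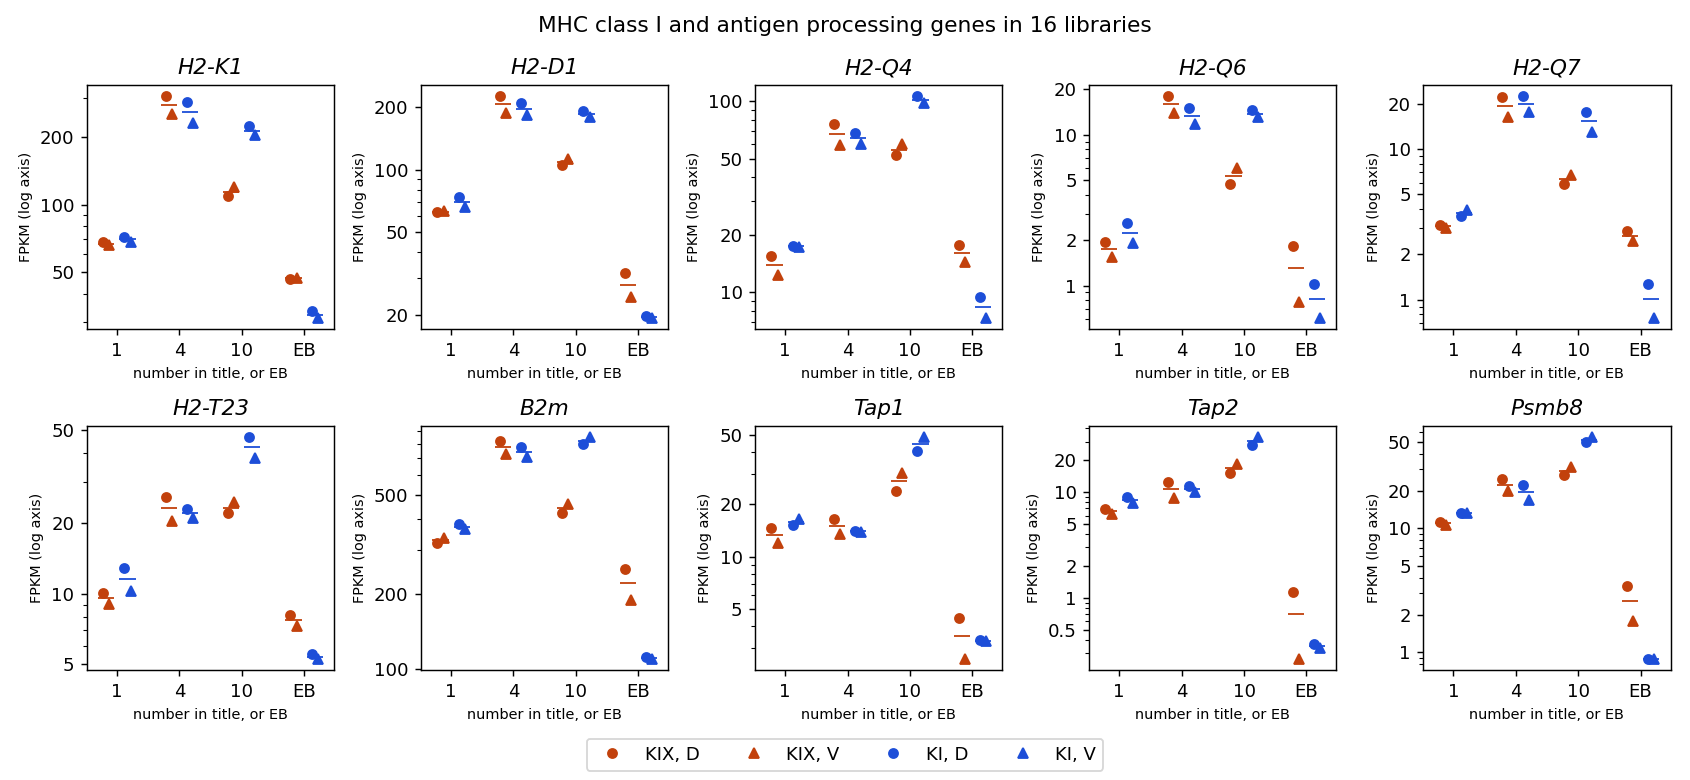
FPKM of the 10 genes (log axis, its range set for each gene) in KIX (orange) and KI (blue) libraries, with circles for D, triangles for V and lines for the mean of the pair. H2-K1 is highest at number 4, at 232 to 305 FPKM, Tap1 at number 10, at 23.7 to 48.6 FPKM, and at number 10 the KIX libraries of every gene lie below the KI libraries.

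Between numbers, H2-K1, H2-D1, H2-Q6 and H2-Q7 had their highest mean at number 4, as did B2m, and Tap1, Tap2, Psmb8, H2-Q4 and H2-T23 had theirs at number 10. The mean of H2-K1 was 68.3 ± 2.36, 269 ± 32.8 and 164 ± 58.2 FPKM at numbers 1, 4 and 10 (SD, n = 4 each), and that of Tap1 was 14.6 ± 1.91, 14.5 ± 1.33 and 35.8 ± 10.95 FPKM. At number 4, 8 of the 10 genes had all 4 libraries above all 4 of number 1, the exceptions being Tap1 and Tap2, and 11.2% of 13080 genes did so. The selection used this contrast, so nothing is read from the count. The ratio of mean FPKM at number 4 over number 1 was 7.37 for H2-Q6, 5.76 for H2-Q7, 4.21 for H2-Q4, 3.95 for H2-K1, 3.04 for H2-D1, 2.17 for B2m and 2.14 for H2-T23, against 1.73 for Psmb8, 1.42 for Tap2 and 0.997 for Tap1. The median difference of mean log2(FPKM + 1), the scale of all log2 values here, was 1.35 over the 10 genes and -0.02 over all genes. This scale understates differences of low genes such as H2-Q6.

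At number 10 all 10 genes had every library above number 1, as did 18.4% of all genes. Their log2 differences from number 1 were 0.78 for B2m, 1.09 for H2-D1, 1.18 for H2-K1, 1.20 for Tap1, 1.48 for Tap2, 1.61 for Psmb8 and 2.21 for H2-Q4, with a median of 1.39 over the 10 genes and -0.01 over all genes. Against number 4, all libraries of number 10 were higher for 3 genes, Tap1 (log2 difference 1.20), Tap2 (1.03) and Psmb8 (0.87), where 12.5% of all genes were, and lower for H2-K1 (-0.78), where 10% were. Both contrasts share libraries with that of number 4 against 1. The median over the 10 genes at number 10 against 4 was -0.07, and it was -0.54 in KIX libraries alone and 0.41 in KI libraries alone.

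**Figure D2:**
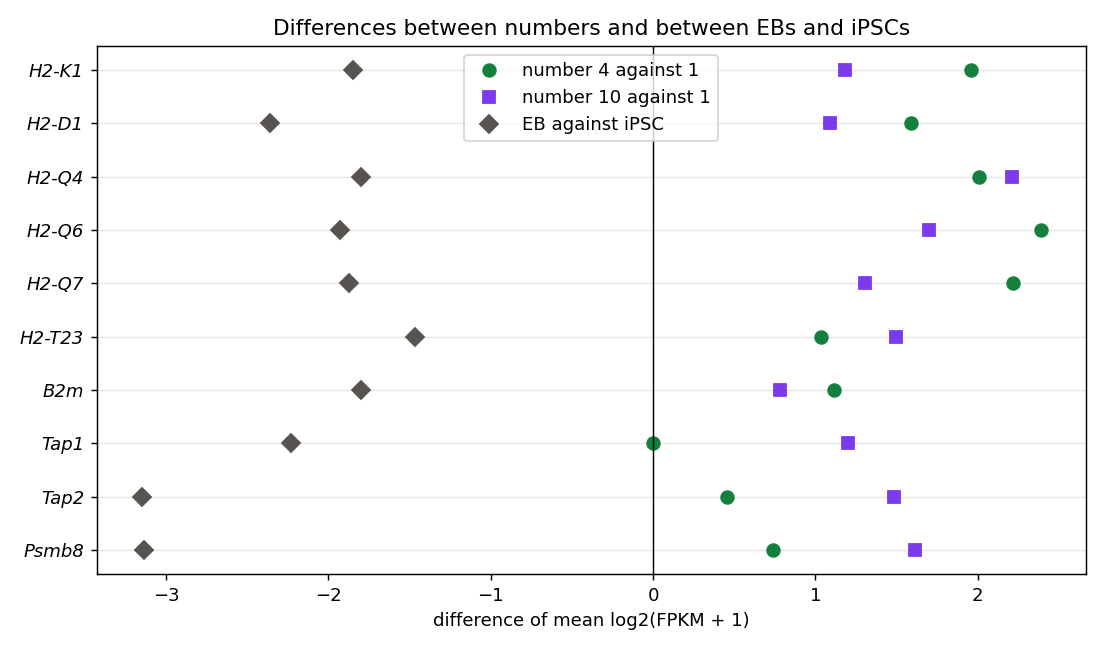
Difference of mean log2(FPKM + 1) for each of the 10 genes at number 4 against 1 (circles), number 10 against 1 (squares) and in EBs against iPSCs (diamonds). Tap1 is at 0.00 for number 4 and 1.20 for number 10, H2-K1 at 1.96 and 1.18, and all 10 diamonds lie below 0.

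The ratio of 2 genes within a library was taken for pairs chosen after their values were seen. Tap1 FPKM divided by H2-K1 FPKM was 0.182 to 0.241 at number 1, 0.0492 to 0.0598 at number 4, 0.181 to 0.256 at number 10 and 0.0550 to 0.105 in EBs. The ratio of H2-K1 to B2m FPKM was 0.187 to 0.211, 0.327 to 0.372, 0.240 to 0.280 and 0.185 to 0.297 in the same order, so H2-K1 was highest against its light chain at number 4. Over the 12 iPSC libraries, Pearson's r of log2 levels was 0.776 to 0.997 between the 6 heavy chain genes and B2m, 0.895 to 0.978 among Tap1, Tap2 and Psmb8, and 0.211 to 0.954 between the 2 groups. Between the groups it was 0.215 for Tap1 with H2-K1, 0.884 for Psmb8 with H2-Q4 and 0.954 for Psmb8 with H2-T23, so H2-Q4 and H2-T23 lay closer to Psmb8 than H2-K1 did. The 12 points share numbers and prefixes, may not be independent, and the H2 rows may share reads. Some of the 10 genes were selected on their rise at number 4 in these libraries. Their r with each other is therefore not independent of the selection.

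Ordered by the mean of each prefix and number, H2-K1 ran KIX 4 (279 FPKM), KI 4 (260 FPKM), KI 10 (214 FPKM), KIX 10 (114 FPKM), KI 1 (69.8 FPKM), KIX 1 (66.7 FPKM), KIX EB (46.7 FPKM) and KI EB (32.2 FPKM). Of these neighbours, only the libraries of KIX 4 and KI 4 overlapped. Tap1 ran KI 10 (44.6 FPKM), KIX 10 (27.1 FPKM), KI 1 (15.9 FPKM), KIX 4 (15.03 FPKM), KI 4 (14.0 FPKM), KIX 1 (13.3 FPKM), KIX EB (3.51 FPKM) and KI EB (3.29 FPKM). Its neighbours overlapped within the 4 groups of numbers 1 and 4 and within EBs. The group with the highest mean was KI 10 for 6 of the 10 genes, KIX 4 for 3 and KI 4 for 1.

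The genes most like each member were sought among 11156 genes, with the 10 members left out, by Pearson's r over the 12 iPSC libraries, as a description. Of these genes, H2-K1 was most like H2-Q8 (r = 0.979), another Q region heavy chain gene, followed by Lrrc45, Sdccag8, Ddit3 and Sirt7 (0.963 to 0.956), while its r with the member H2-D1 was 0.995. H2-Q8 had 1.67, 7.09 and 4.88 FPKM on average at numbers 1, 4 and 10. B2m was most like Sdccag8 (0.992), Ddit3, Lrrc45, H2-Q8 and Ephx1. Tap1 was most like Gsdmd (0.992), which encodes a pore-forming protein of pyroptosis, then Slco3a1, the chemokine gene Ccl2, Ch25h, a sterol hydroxylase gene induced by interferon, and Unc93b1, which carries endosomal Toll-like receptors. Ccl2 averaged 275, 307 and 798 FPKM at numbers 1, 4 and 10. Psmb8 was most like the progranulin gene Grn (0.989), then Pik3ip1, Mgst1, Ly6e and Nfe2l2.

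Other genes of the class I pathway, with class II and interferon-induced genes counted in, went both ways at number 4 against 1. In limma's test on all 13080 genes, 3.2% were higher and 5.5% lower at an adjusted p under 0.05, and of 73 tested pathway genes 7 were higher and 21 lower, and without KI D of number 1 the 28 calls were 17. With means for each prefix by number in place of each letter, 50 of the 73 were called. The 1138 calls over all genes were 318 to 1140 with 1 library left out. They were 336 without KIX D, 329 without KIX V, 318 without KI D and 384 without KI V of number 1, and 346 without KIX V and 672 without KI V of number 4. Of 14 other heavy chain genes 3 were higher, H2-Q8 (log2 difference 1.60), H2-Q9 (1.00) and H2-M5 (0.89). Of 14 peptide supply and loading genes Psmb9, an immunoproteasome subunit beside Psmb8, was higher (0.82), and 4 were lower, among them the chaperones Canx (-0.31) and Calr (-0.27) and the translocon gene Sec61a1 (-0.23). None of the 3 constitutive catalytic proteasome subunits was called, and none had an unadjusted p under 0.05. Of 22 regulators, Relb, an NF-kappaB subunit, was higher (0.64), as was 1 other, and 4 were lower, among them Ifnb1 (-1.18), which encodes interferon beta, and the signal transducer gene Stat2 (-0.93). Nlrc5, the transactivator of class I genes, averaged 1.51 ± 0.300, 0.816 ± 0.239 and 5.45 ± 1.99 FPKM at numbers 1, 4 and 10 (SD, n = 4 each). Of 4 tested class II pathway genes H2-Eb1 was higher (0.80).

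Most of the interferon-induced genes were low at number 4, where the heavy chains were high. Against number 1, 13 of 16 were lower in limma's test and none higher, with a median of -1.98. Among the lower ones were Cxcl10 (-3.75), Rsad2 (-3.04), Cmpk2 (-2.63) and Ifit3 (-2.50). Irf7 (0.70, limma's adjusted p = 0.081) and Cxcl11 (0.64, 0.095) went the other way without passing. Both had all libraries of number 4 above all of number 1, as did 11.2% of all genes. Cxcl10, a chemokine gene, averaged 73.6 ± 17.1, 4.49 ± 1.14 and 541 ± 194 FPKM at numbers 1, 4 and 10 (SD, n = 4 each). Isg15, a ubiquitin-like modifier gene, averaged 158 ± 22.6, 39.2 ± 14.6 and 526 ± 150.4 FPKM. At number 10 against 1 all 16 were higher in limma's test, with a median of 1.86, among them Ifit2 (3.55), Cxcl11 (2.95), Cxcl10 (2.83) and Mx1 (2.76), where 13.5% of all genes were higher and 13.9% lower.

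The rest of the pathway at number 10 against 1 included 9 of 14 other heavy chain genes that were higher, among them H2-M3 (1.17), H2-T9 (1.16), H2-Q8 (1.06) and H2-M5 (1.05), and none lower. Of the 14 supply and loading genes 5 were higher, among them Psmb9 (1.99), Tapbp (1.16), which encodes the loading factor tapasin, its relative Tapbpl (1.09), and the immunoproteasome subunit gene Psmb10 (1.02), and 3 were lower. The 3 constitutive proteasome subunits were again not called. Of 22 regulators 11 were higher, among them Nlrc5 (1.32), Jak1 (0.95) and Stat2 (0.93), and 3 were lower. In all, 42 of the 73 pathway genes were higher and 6 lower, with the 16 interferon-induced genes, all higher, counted in. The class II gene Cd74 was higher (0.37), the only 1 of 4.

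**Figure D3:**
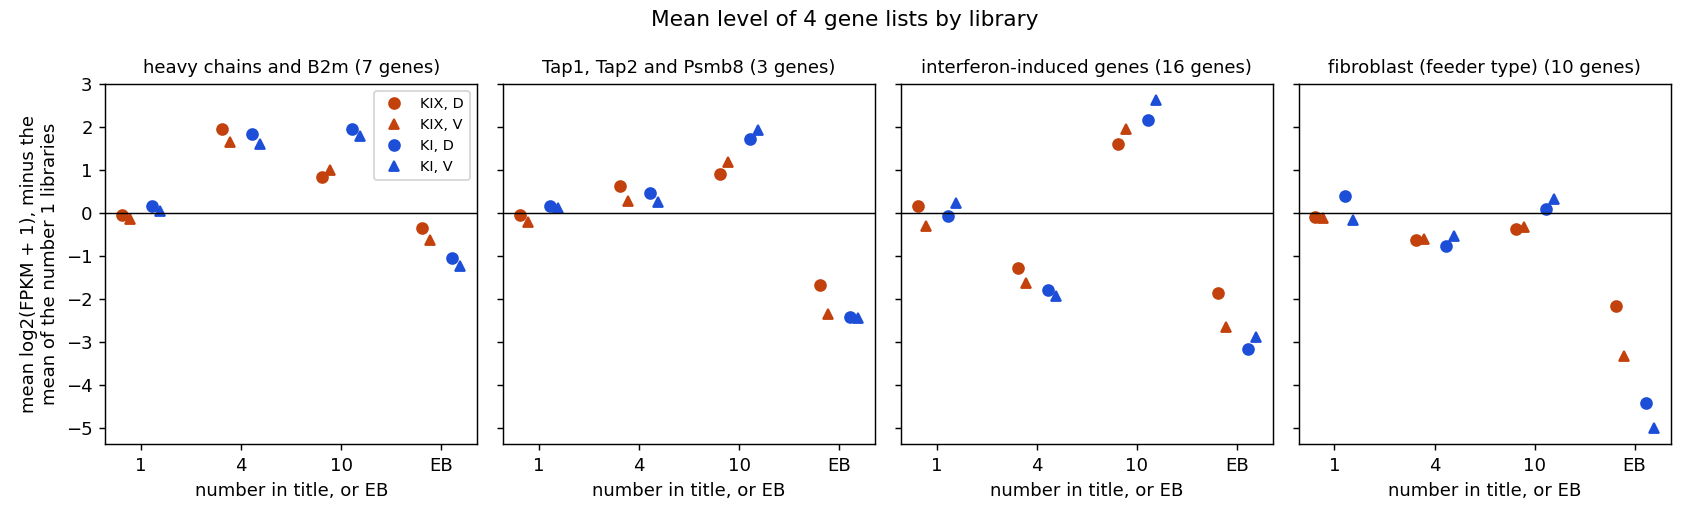
Mean log2(FPKM + 1) of 4 gene lists in each library, minus the mean of the number 1 libraries, in KIX (orange) and KI (blue) libraries with circles for D and triangles for V. At number 4 the heavy chains and B2m lie 1.60 to 1.95 above number 1, Tap1, Tap2 and Psmb8 lie 0.26 to 0.61 above it, and the interferon-induced genes lie below 0.

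Feeder cells are fibroblasts, and their part in the levels was not tested. The 10 fibroblast markers, all with a row, summed to 1696 to 2531 FPKM at number 1, 1143 to 1325 FPKM at number 4, 1469 to 2566 FPKM at number 10 and 24.1 to 489 FPKM in EBs. The sum was thus lowest among the iPSC libraries at number 4, where H2-K1 was highest. The 8 white blood cell markers summed to 20.1 to 25.5 FPKM in EBs and 33.3 to 67.3 FPKM in iPSC libraries.

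At number 1 none of the 10 genes was called by limma between KIX and KI libraries, and none had an unadjusted p under 0.05, where 2.2% of 13895 genes were called in either direction. Those 306 genes were 40 without KIX V, 68 without KIX D, 82 without KI D and 91 without KI V. Differences of KIX minus KI lay between -0.31 (H2-Q4 and Tap2) and -0.06 (H2-K1), and both KIX libraries were below both KI libraries for 9 of the 10 genes, as for 27% of all genes. At number 4 none was called and none had an unadjusted p under 0.05. The differences lay between -0.06 (H2-Q7) and 0.24 (H2-Q6) with a median of 0.07, and the libraries of the prefixes overlapped for all 10 genes. With SEs of 0.11 to 0.23 at these numbers, differences of the size seen at number 10 would have stood several SEs from 0. For Tap1, Tap2 and Psmb8 such differences may still not have passed the adjustment at number 1, where few genes were called. Smaller ones may have been missed for all genes.

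At number 10 all 10 genes were lower in KIX than in KI libraries. The log2 difference was -0.90 ± 0.11 for H2-K1 (SE, limma's adjusted p = 0.0015), whose KIX mean was 0.534 of the KI mean. It was -0.90 ± 0.12 for B2m (limma's adjusted p = 0.0017), with a KIX mean of 0.535 of the KI mean. The heavy chains H2-D1 (-0.77), H2-Q4 (-0.86), H2-Q6 (-1.23), H2-Q7 (-1.15) and H2-T23 (-0.83) had adjusted p-values of 0.0029 to 0.0052 in limma's test. Tap1 (-0.70, adjusted p = 0.022), Tap2 (-0.82, 0.023) and Psmb8 (-0.82, 0.013) were lower as well by limma. Both KIX libraries were below both KI libraries for each of the 10 genes. The share of all genes split in this way at number 10 is not given here, and at number 1 it was 27%. Of all genes, limma called 14.6% lower and 9.94% higher, and the median difference was 0.00 over all genes and -0.84 over the 10. Without KIX D of number 10, 5 of the 10 genes were called, the uncalled ones being H2-Q4, H2-Q6, Tap1, Tap2 and Psmb8. Without KI V of number 10, Tap1, Tap2 and Psmb8 were not called.

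The fibroblast sum at number 10 was 1469 and 1574 FPKM in KIX D and V, and 2205 and 2566 FPKM in KI D and V, so it moved in the same direction as the class I genes, and its part in the result was not tested. The white blood cell sum moved the other way, with 67.3 and 60.9 FPKM in KIX D and V and 50.9 and 47.6 FPKM in KI D and V. Of 75 pathway genes tested there, 26 were lower in KIX and 1 higher, and without KIX D of number 10 the 27 calls were 4. They included 6 of 16 other heavy chain genes, among them H2-Q8 (-0.93), H2-T22 (-0.72), Hfe (-0.66), which encodes a regulator of iron uptake with a class I fold, and Mr1 (-0.61), which presents vitamin B metabolites. Supply and loading genes that were lower included Erap1 (-0.65), which trims peptides, Tapbp (-0.51), and the proteasome activator genes Psme2 (-0.35) and Psme1 (-0.32). Of 22 regulators 11 were lower, among them Nlrc5 (-0.59), Ifngr1, Ifngr2 and Irf2 (-0.56 each), and none higher. Among the 16 interferon-induced genes 4 were lower, Gbp2 (-0.82), Cxcl11 (-0.79), Irf7 (-0.76) and Mx1 (-0.73). The class II gene H2-DMa was lower (-0.53), and no constitutive proteasome subunit was called.

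At number 4, 9 of the 75 pathway genes were called between the prefixes, 6 higher and 3 lower in KIX, where 11.3% of all genes were higher and 8.29% lower. The higher ones included the class II gene H2-Eb1 (0.71), Lnpep (0.59), Stat2 (0.58), Tapbp (0.41) and Jak1 (0.36), and the lower ones were H2-Q10 (-0.68), H2-Bl (-0.60) and Irf1 (-0.34). Without KIX D of number 4 only 1 pathway gene was called.

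**Figure D4:**
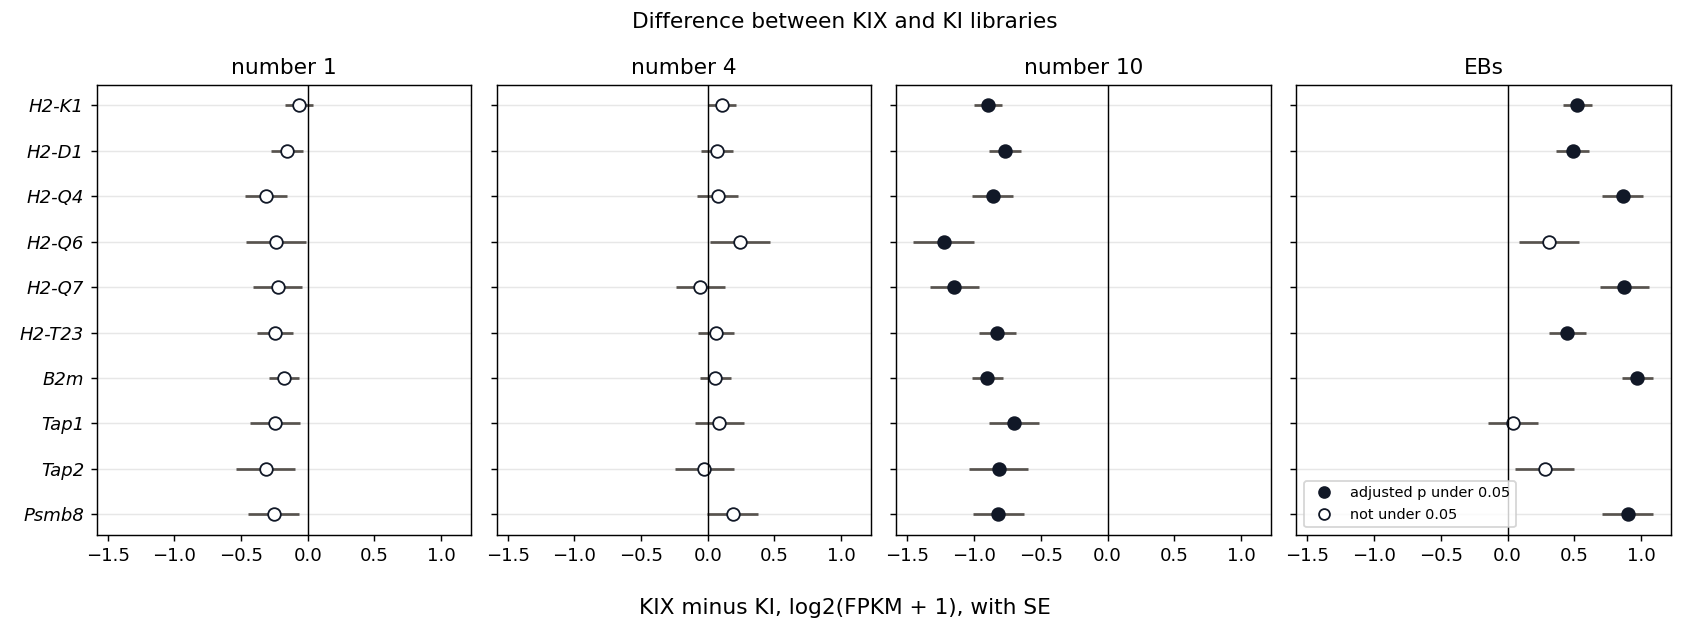
Difference of KIX minus KI in mean log2(FPKM + 1) for the 10 genes at numbers 1, 4 and 10 and in EBs, with SE from limma (2 libraries a side), filled where the adjusted p was under 0.05. At number 10 all 10 filled points lie between -1.23 and -0.70, and in EBs 7 filled points lie between 0.45 and 0.97.

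The difference between prefixes itself changed between numbers 4 and 10. In limma's test of the change, 9 of the 10 genes were lower, where 17.1% of all genes were lower and 11.4% higher. The change was -1.004 ± 0.15 for H2-K1 (SE, limma's adjusted p = 0.0017), -0.96 ± 0.16 for B2m (0.0031 by the same test) and -1.47 ± 0.32 for H2-Q6 (0.0085). Tap1 changed by -0.79 (limma's adjusted p = 0.045), and Tap2 by -0.79 without passing (0.080). Without KIX D of number 4, H2-Q7, Tap1 and Psmb8 were not called either. The mean at number 10 over that at number 4 was 0.409 in KIX and 0.823 in KI for H2-K1, 0.569 in KIX and 1.11 in KI for B2m, and 1.80 in KIX and 3.18 in KI for Tap1. From number 1 to 4 the change was 0.17 to 0.48, none was called by limma and none had an unadjusted p under 0.05, where 4.71% of all genes were called in either direction.

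In EBs the class I genes were low, and 8 of the 10 had all 4 EB libraries below all 12 iPSC libraries, as did 27.5% of all genes. H2-Q4 and H2-Q6 overlapped. The mean level in EBs was 165 ± 68.3 FPKM for B2m (SD, n = 4), against 581 ± 215 FPKM in iPSCs (SD, n = 12). Psmb8 averaged 1.74 ± 1.21 FPKM in EBs and 24.6 ± 14.5 FPKM in iPSCs, and Tap2 averaged 0.525 ± 0.407 FPKM in EBs and 14.0 ± 8.53 FPKM in iPSCs. The ratio of the EB mean over the iPSC mean was 0.236 for H2-K1, 0.157 for Tap1, 0.0707 for Psmb8 and 0.0376 for Tap2. Without KIX D of EBs, the Tap2 mean there was 0.322 FPKM and its ratio 0.0231. The median log2 difference was -1.90 over the 10 genes and 0.02 over all genes. Selection with this contrast known bars a test. In bulk RNA, fewer cells of a type, feeders included, and less RNA per cell cannot be told apart, and the fibroblast sum was also lower in EBs, as given above.

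Of 75 pathway genes tested between EBs and iPSCs by limma, 49 were lower and 14 higher, where 38.1% of all genes were lower and 40.8% higher. Of 16 other heavy chain genes 13 were lower, among them H2-M5 (-2.09), Fcgrt (-2.08), which encodes the neonatal Fc receptor, Hfe (-1.51) and H2-M3 (-1.45), and 2 were higher. Of 14 supply and loading genes 5 were lower, among them the immunoproteasome subunit genes Psmb9 (-2.62) and Psmb10 (-2.35), Psme2 (-0.89) and Tapbpl (-0.69), and 3 were higher. The constitutive subunit genes Psmb6 (-0.74), Psmb5 (-0.63) and Psmb7 (-0.44) were lower as well. Regulators went both ways, with Nlrc5 (-1.43), Stat2 (-1.20) and Irf1 (-1.11) among 10 lower and the NF-kappaB subunit gene Rela (1.11) among 8 higher of 22. All 16 interferon-induced genes were lower, with Ifit3 at -4.24, Irf7 at -3.86, Isg15 at -3.82 and Ifit1 at -3.65. Of 4 class II genes H2-Ab1 was higher (1.05), and H2-DMa (-0.72) and H2-Eb1 (-0.52) were lower.

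Within EBs, 7 of the 10 genes were higher in KIX than in KI libraries by limma, where 12.4% of all genes were higher and 15% lower. The log2 difference was 0.97 ± 0.12 for B2m (SE, limma's adjusted p = 0.00025), with a KIX mean 1.99 times the KI mean, and 0.52 ± 0.11 for H2-K1 (0.0045 by the same test). It was 0.90 for Psmb8 (limma's adjusted p = 0.0061), 0.87 for H2-Q7 (0.0057), 0.86 for H2-Q4 (0.0025), 0.49 for H2-D1 (0.013) and 0.45 for H2-T23 (0.033). H2-Q6 (0.31, limma's adjusted p = 0.34), Tap2 (0.28, 0.38) and Tap1 (0.04, 0.90) were not called. Tap1 had 1 KIX library above and 1 below both KI libraries. Without KI V the count was 4, with H2-D1, H2-Q7 and H2-T23 uncalled. H2-D1 and H2-T23 were also uncalled without KI D or without KIX D, and H2-T23 also without KIX V, while Tap2 was called without KIX V (0.66). The fibroblast sum was 489 and 160 FPKM in KIX D and V EBs, and 47.0 and 24.1 FPKM in KI D and V EBs, the same direction as the 7 genes, and its part in the result was not tested. The white blood cell sum was 25.5 and 23.9 FPKM in KIX D and V EBs, and 20.1 and 20.7 FPKM in KI D and V EBs. The mean of the interferon-induced genes, relative to number 1, lay between -2.65 and -1.87 in KIX EBs and between -3.17 and -2.89 in KI EBs. Of 75 pathway genes tested there by limma, 20 were higher in KIX and 2 lower. They included 8 of 16 interferon-induced genes, all higher, and of 16 other heavy chain genes 7 higher and 1 lower. How these counts move with a library left out was not computed.

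None of the 10 genes was called between D and V libraries. The KIX and KI libraries were the replicates in these tests. The spread thus included differences between prefixes, and differences of D and V may have been missed. In iPSCs the log2 differences of D minus V were -0.02 (Tap1) to 0.17 (H2-T23), and in EBs 0.04 (H2-K1) to 0.50 (H2-Q6). The SEs in EBs were 0.27 (Tap1) to 0.47 (H2-Q7). Both D libraries of EBs lay above both V libraries for H2-Q6, Tap1 and Tap2, and the libraries of the other genes overlapped. Within a prefix, D was above V in both KIX and KI for 5 of the 10 genes at number 1, for 10 at number 4, for 0 at number 10 and for 9 in EBs. At number 10 D was above V for 0 genes in KIX and for 6 in KI. Neither these counts nor the split of the EB libraries has a share over all genes beside it. The levels of the 10 genes are correlated, so nothing is read from the counts about D and V. With the prefix as a replicate block none was called either. Such a block removes only a prefix difference that is the same at every number and in EBs. In limma's tests in iPSCs and in EBs none had an unadjusted p under 0.05, and 0.0306% of all genes in iPSCs and 0.0144% in EBs were called in either direction.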

How the data were processed

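FPKM values of 16 libraries were deposited by the authors as 1 table, normalized for gene length and sequencing yield. The submitters' processing notes list Cufflinks 2.2.1, TopHat2 2.0.10, SAMtools 0.1.19, Bowtie 1.0.0 and FastQC, and the build GRCm38 (mm10). Settings and annotation are not given in the sources used here. Per the labels' protocols, libraries were strand-marked. FPKM carries no depth: of 11888 low values over 994 genes only 61.5% lay within 0.1 of a whole read unit, so whole reads were not recovered and no counting interval is given. FPKM is relative, so the gain of 1 abundant transcript lowers all others. Reads of near-identical H2 genes can be split unevenly.

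The test was limma (version 3.58.1, R 4.3.3) on log2(FPKM + 1) values (empirical Bayes with trend, two-sided, Benjamini-Hochberg adjustment over all genes tested, threshold 0.05), after dropping genes that reached 1 FPKM in fewer than 2 of the fitted libraries. The steps were first tested on simulated data. Numbers and letters were compared over 12 iPSC libraries, or 16 with EBs, with means for each letter by number. KIX was compared with KI over 16 libraries with means for each prefix by number, D and V being the 2 replicates. Libraries sharing a prefix, D and V, deviated together from their group means (r = 0.207 to 0.379 over genes), so the prefix pairs libraries in D against V.

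The 10 genes, the pathway and marker lists and the tests were chosen with earlier results of these data known. H2-Q5 was not analysed here, and 1 gene that the naming rule picks is not reported here. Of each pathway list and comparison up to 4 called genes with the largest change are named, or the 2 with the highest mean, and the 5 genes most alike for H2-K1, B2m, Tap1 and Psmb8. Mir203, Nlrc5, Cxcl10, Isg15 and Psmb5 have extra values, chosen after they were seen, as were the levels of H2-Q8 and Ccl2. The ratio for Tap2 without KIX D of EBs was added after its value was seen. Alternatives were other pseudocounts, filters, quantile normalization, blocks, prefixes alone and each library left out. Figures were drawn with matplotlib 3.10.9.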

Additional observations from a re-analysis of the deposited data

Results flagged for a closer look

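The difference of KIX minus KI changed between iPSC numbers 4 and 10 for 9 of the 10 genes, by limma's test of the change itself. On the log2(FPKM + 1) scale the changes were -1.004 for H2-K1, -0.84 for H2-D1, -0.94 for H2-Q4, -1.47 for H2-Q6, -1.09 for H2-Q7, -0.89 for H2-T23, -0.96 for B2m, -0.79 for Tap1 and -1.01 for Psmb8. At number 10 both KIX libraries were below both KI libraries for each of these 9 genes, and at number 4 the libraries overlapped. The share of all genes split in this way at number 10 is not given here.

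Tap2 in EBs had 1 library far from the other three, KIX D at 1.13 FPKM. Groups of libraries searched in this way numbered 40, of which chance gives about 1 in 20.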

How the results depend on the processing

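The median log2 difference of the 10 genes at number 10 against 4 was -0.07, and it was -0.54 in KIX libraries alone and 0.41 in KI libraries alone, with -0.31 to 0.18 when 1 library was left out. At number 10 against 1 it was 1.39, and 1.75 in KI libraries alone. For EBs against iPSCs it was -1.90, and -2.37 with a pseudocount of 0.1, -1.50 in KIX libraries alone and -2.43 in KI libraries alone. Genes called in KIX against KI numbered 10 at number 10 and 5 to 10 with 1 library left out. In EBs they numbered 7, 4 with a pseudocount of 5, and 4 to 7 with 1 library left out. The change of that difference between numbers 4 and 10 was called for 9 genes and for 6 to 9 with 1 library left out, and Tap1 was not called with the letter as a replicate block (-0.79). Pathway genes called at number 4 against 1 numbered 28, 50 with means for each prefix by number, and 17 to 26 with 1 library left out. In KIX against KI they numbered 9 at number 4 (1 to 13 with 1 library left out) and 27 at number 10 (4 to 24). With the prefix as a replicate block, called pathway genes numbered 29 at number 4 against 1 and 51 at number 10 against 1. The block changed no call of the 10 genes in D against V. Over the whole table, 1138 genes were called at number 4 against 1, 1906 with the prefix as a replicate block and 5360 with means for each prefix by number, and 3588 at number 10 against 1, 7059 with those means. Quantile normalization moved the higher share of the calls at number 4 against 1 to 49.8%, against 36.7% without it, and that of the change from number 4 to 10 to 51.5%, against 40.0%. With 1 library left out, the calls over the whole table were 1826 to 2978 at number 10 against 1. In KIX against KI they were 1026 to 3649 at number 4 (2725 with all libraries), 697 to 2662 at number 10 (3414) and 1946 to 3209 in EBs (3796). For the change of that difference they were 71 to 2385 between numbers 1 and 4 (655) and 2007 to 4626 between numbers 4 and 10 (3955). The causes were not tested, beyond the fewer libraries that leaving out implies. With 2 libraries a side and unknown depth, small differences and those of low genes such as H2-Q6 and Tap2 in EBs are the least certain.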
